A study of Mus musculus with 16 samples.

Results

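Acetylation of histone H3 at lysine 27 (H3K27ac) was present at 771 places of the genome in early wild-type Th2 cells and was listed at those places in no other condition of the series. These regions, found in early WT alone, were 2.15% of the 35909 H3K27ac regions of the study. All islands (stretches called as enriched) of the 8 H3K27ac lists were merged where they overlapped or touched. A merged region was kept if both early WT lists held an island in it and none of the other 6 lists did. The members were thus chosen by H3K27ac values, and every H3K27ac value given for them is a description without a test. DNase-seq, which the choice did not use, is tested further on.

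All cells were CD4 T cells from C57BL/6 mice with floxed Bcl11b alleles and the CreERT2 recombinase, which enters the nucleus when 4-hydroxytamoxifen (4-OHT) is added. Per the labels the starting cells were naive, although a sort on high CD44 is given too. Early WT cells had 4 days of Th2 culture without 4-OHT, and early KO cells had the same 4 days with it. Late cells were primed for 4 days under Th2 conditions, rested for 1 day with IL-2 and returned to Th2 conditions for 4 days, without 4-OHT (late WT) or with it in this second culture (late KO). The floxed alleles and the Cre were shared by all 4 groups. Genotype and exposure to 4-OHT cannot be told apart, since no WT group received the drug. The promoter of the Cre, the number of mice and whether replicates came from separate animals are not given in the sources used here, so the spread between replicates may be technical. Each assay had 2 libraries per group, 16 in all, and each library came as a list of islands with no read counts. The depth is therefore unknown, and an absent island is not proof that the mark was absent.

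H3K27ac is laid down by the acetyltransferases p300 and CBP at active promoters and enhancers, and it is lost when an enhancer is switched off. DNase I cuts where nucleosomes are displaced, so DNase islands mark the bound cores of such elements, while the acetylated nucleosomes lie around them. A naive CD4 T cell that becomes a Th2 cell turns on GATA3 and the type 2 cytokine genes and shuts elements of the naive and Th1 programmes. Bcl11b is a zinc finger factor needed for the T lineage, and the title of the series names it as a partner of GATA3. Regions are named by their mm9 position. The gene table used here was of another build, so no gene was assigned to a region and the labelled cell type was not checked against marker genes.

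The regions in early WT alone were weak within their lists but wider than regions of the other single groups. Their median width was 3.2 kb (interquartile range 2.4 to 4.4 kb, 0.8 to 16 kb in all), against 2.2 kb for 817 regions found in early KO alone, 2.2 kb for 492 in late WT alone and 2.0 kb for 376 in late KO alone. Regions held by all 8 lists, 18384 in number, had a median of 4.6 kb. Together the 771 regions spanned 2.82 Mb. The caller's score of each island, which is the authors' value, was ranked within its own list. The median region stood at percentile 15.2 (interquartile range 9.59 to 21.7), close to the regions of early KO alone (14.9) and late WT alone (13.7). By width alone the islands stood near the middle of the early WT lists, at a median percentile of 44.5, where those of early KO alone stood at 26.9 in their lists and those of late WT alone at 28.6. Score per kb was low, at percentile 12.5, against 17.6 and 15.1 in the same order. By these medians the members were wider than regions of the other single groups, with a lower score per kb, but narrower than those of all 8 lists. Regions of like score that both early WT lists shared with another list were nearly as wide. Their median was 3.0 kb against 3.2 kb in members between score percentiles 10 and 15. It was 3.4 kb in both between 25 and 30, and 3.6 kb against 3.4 kb in members between 30 and 40. The width was thus not particular to the members among early WT regions. Only 2 members had a mean score percentile of at least 50, and 639 (82.9%) lay under 25.

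**Figure D1:**
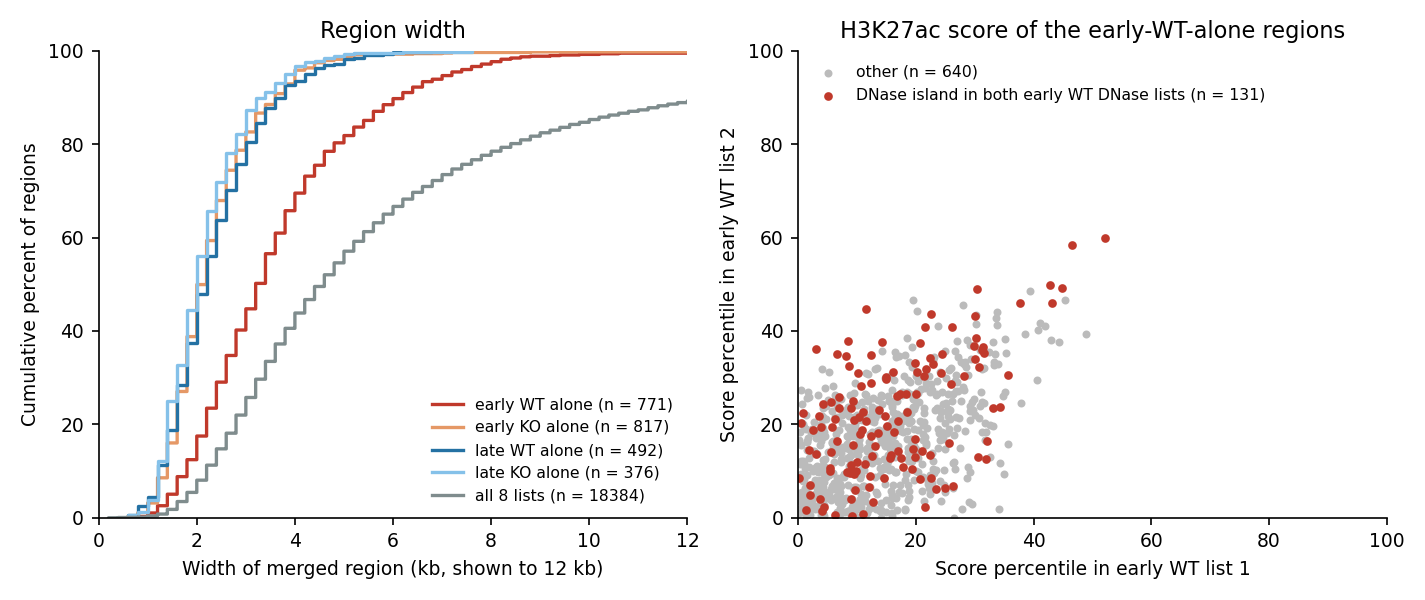
Left, cumulative percent of regions (vertical) against merged width in kb (horizontal) for regions found in 1 group alone and in all 8 lists. Right, score percentile of each of the 771 early-WT-alone regions in early WT list 1 (horizontal) and list 2 (vertical), with the 131 that held a DNase island in both early WT DNase lists in red. The early-WT-alone curve lies to the right of the other single-group curves, and the points crowd below percentile 30 in both lists.

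The 2 early WT libraries placed the mark at the same spots but not always over the same length. Islands of early WT 1 covered a median of 2.8 kb of a member and those of early WT 2 a median of 2.4 kb. Early WT 1 covered more in 426 members, early WT 2 in 275, and 70 were equal. The lists shared a median of 65.0% of a member's width, and in 1 member they shared no window. Across the 771 members the score percentiles of the 2 lists correlated at 0.531 (Pearson) and 0.462 (Spearman), a description over regions that were chosen for being in both lists. The 771 members took 780 islands of each early WT list, 2.94% of the islands of early WT 1 and 2.75% of those of early WT 2.

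The strongest member lay on chromosome 13 at 52259801 to 52265400. Early WT 1 covered 5.6 kb of it and early WT 2 covered 5.2 kb, at score percentiles 52.1 and 59.9. DNase islands covered 0.6 and 1.0 kb of it in the early WT DNase lists and were absent from the other 6. The region on chromosome 16 at 95885801 to 95888400 came next, with 2.4 kb of H3K27ac in each early WT list at percentiles 46.5 and 58.3. It too had DNase islands in early WT alone, over 0.8 and 1.0 kb. So did the third, on chromosome 9 at 87072001 to 87076400 (percentiles 44.8 and 49.3), where DNase islands covered 1.2 and 2.2 kb. These 3 strongest members thus had the same pattern in both assays, open and acetylated in early WT libraries and listed in no others.

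The next members by score were less uniform. On chromosome 11 the region at 79497801 to 79501200 (percentiles 42.9 and 49.8) had DNase islands of 0.4 and 0.8 kb in early WT, but early KO 2 also held 0.4 kb and late WT 1 held 0.8 kb. The regions on chromosome 6 at 29990801 to 29993000 (mean percentile 46.0), chromosome 18 at 7886401 to 7895600 (44.1) and chromosome 17 at 71128601 to 71131600 (41.5) held no DNase island in any of the 8 DNase lists. On chromosome 9 the region at 67115001 to 67119000 (44.1) had one in early WT 2 only, over 1.8 kb. The region on chromosome 7 at 122107401 to 122110800 (44.6) stood 250.0 kb from any other H3K27ac region and had DNase islands of 0.8 and 0.6 kb in early WT and none elsewhere. The same DNase pattern was seen on chromosome 3 at 89294001 to 89297200 (41.9), with 1.2 and 1.6 kb. Of the 10 strongest members, then, 5 were open in both early WT DNase lists and no other, and 3 had no DNase island at all.

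The widest members held H3K27ac islands but no listed DNase island in early WT cells. The region on chromosome 4 at 62303801 to 62319800 was 16 kb wide, of which early WT 1 covered 12.4 kb and early WT 2 covered 12.6 kb. On chromosome 10 the region at 39253401 to 39267800 was 14.4 kb wide but rested mostly on early WT 1, with 13.6 kb against 3.6 kb. That on chromosome 11 at 4571401 to 4585400 was 14.0 kb wide, with 7.2 and 14.0 kb in turn. Those on chromosome 15 at 89116201 to 89128600 and chromosome 9 at 21495401 to 21506000 were 12.4 and 10.6 kb wide. None of these 5 had a DNase island in either early WT list, and the only DNase island in any of them was one of 2.0 kb in early KO 2, in the chromosome 11 region.

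Members seldom lay far from other acetylated chromatin. The median gap to the nearest other H3K27ac region was 5.6 kb, against 8.4 kb for early KO alone, 6.4 kb for late WT alone and 5.4 kb for the regions in all 8 lists. Another H3K27ac region lay within 1 kb of 143 members (18.5%), whereas 44 had none within 50 kb. The nearest neighbour was a region of all 8 lists for 398 members (51.6%) and another member for 36 (4.67%). A region of all 8 lists lay within 10 kb of 347 members (45.0%), against 28.4% for early KO alone, 43.3% for late WT alone and 46.1% for the regions of all 8 lists themselves. By position the members thus resembled acetylated regions in general, and lay nearer to lasting ones than the regions of early KO alone did.

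Acetylation around the members was also widest in early WT cells. In the 25 kb on each side, islands of the early WT libraries covered a mean of 8.55 and 8.09 kb. Those of early KO covered 6.24 and 6.77 kb, those of late WT 5.75 and 5.79 kb, and those of late KO 5.88 and 5.47 kb. Both early WT libraries were above the other 6. Around the regions of all 8 lists the 8 libraries lay between 6.02 and 6.65 kb, with no such excess. Around the regions of early KO alone it was the early KO libraries that were highest, at 4.53 and 4.67 kb against 2.88 to 3.67 kb elsewhere. A surplus in the chosen group is thus shared by these kinds of region, and since the choice used the same libraries it is given without a test. The 8 H3K27ac lists covered 100.9 to 111.7 Mb in all, with 107.3 and 102.8 Mb in early WT. The part of list length in the surplus was not tested.

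**Figure D2:**
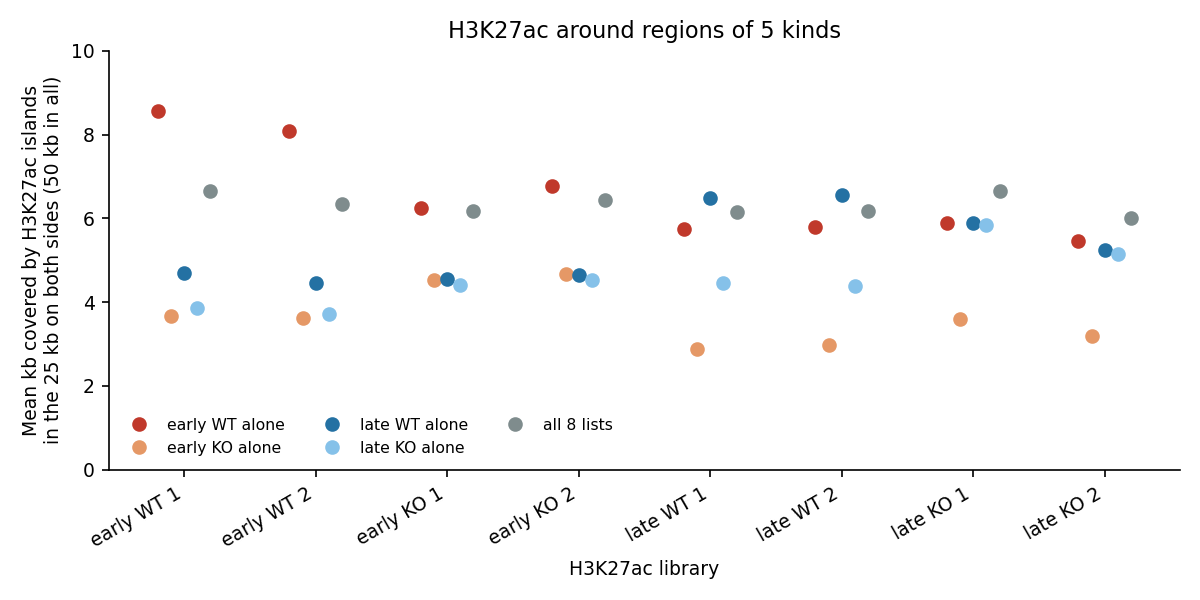
Mean kb covered by H3K27ac islands in the 25 kb on both sides of a region (vertical, 50 kb in all, the region itself left out) in each of the 8 H3K27ac libraries (horizontal). Points stand for the mean over all regions of a kind, and the early-WT-alone points are highest in the 2 early WT libraries, at 8.55 and 8.09 kb.

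Some members came in groups. With members linked when at most 50 kb apart, 148 members (19.2%) fell into 66 groups of at least 2, and 36 into 10 groups of at least 3. The share in groups was 17.0% for regions of early KO alone, 12.4% for late WT alone and 11.4% for late KO alone, which are sets of other sizes. The group on chromosome 13 from 52161401 to 52280200 held 5 members, the strongest of all among them. Over its 118.8 kb islands covered 24.6 and 29.2 kb in early WT and 4.0 to 4.8 kb in each of the other 6 libraries. A group of 5 on chromosome 14 from 28072201 to 28207200 lay in chromatin acetylated at every stage, where islands of the early WT lists covered 76.2 and 64.2 kb, those of early KO 38.4 and 40.8 kb and those of the 4 late lists 17.0 to 17.8 kb. Early KO cells were thus between early WT and late cells there.

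The other large groups differed in what was left. The group of 4 on chromosome 4 from 119761001 to 119807600 had 25.4 and 15.4 kb in early WT and no island in the other 6 lists over its whole 46.6 kb. Its DNase islands were few, covering 1.0 kb in the second early WT list and 0.8 kb in the second early KO list. On chromosome 10 from 39213201 to 39307400, a group of 4 had 30.2 and 22.6 kb in early WT and 0.0 to 3.2 kb elsewhere. On chromosome 18 from 82656401 to 82713600 a group of 3 was covered over 40 and 41.8 kb by the early WT lists, 19.6 and 21.8 kb by early KO, 15.4 and 10.6 kb by late WT and 7.2 and 8.8 kb by late KO. In all 5 groups both early WT libraries lay above the other 6, a direction that the choice of members favours.

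**Figure D3:**
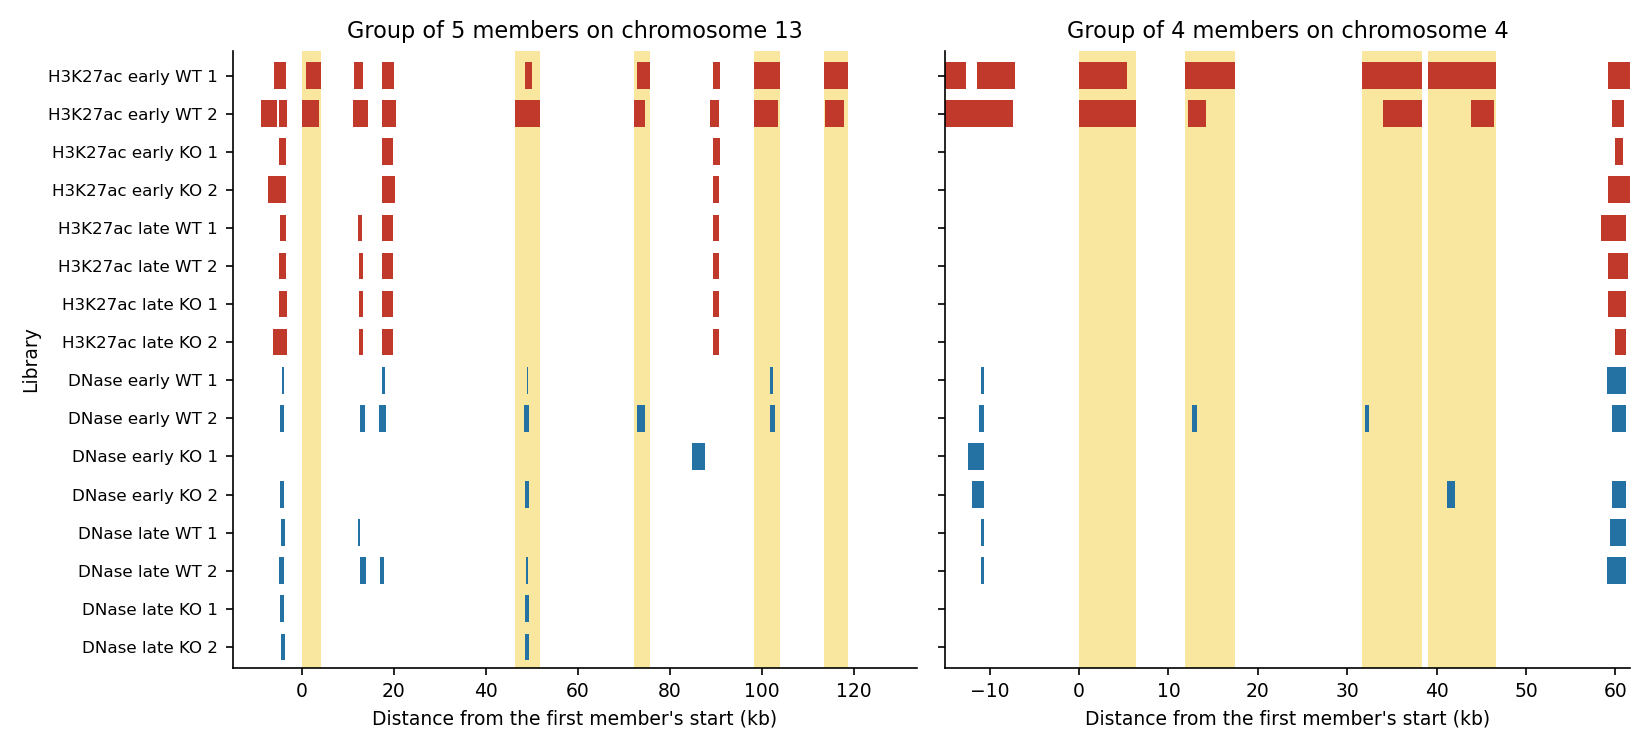
Islands in the 16 libraries (rows, H3K27ac in red and DNase in blue) over the groups on chromosomes 13 (left) and 4 (right), against distance in kb from the start of the first member (horizontal). Yellow bands mark the members, which hold red islands in the 2 early WT rows and in no other H3K27ac row.

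Chromosomes contributed unequally. Members were 3.11% of the H3K27ac regions of chromosome 17 (49 members), 2.77% of those of chromosome 11 (74) and 2.75% of those of chromosome 6 (55). The share was lowest on chromosomes X (1.08%, 9 members), 19 (1.13%, 12) and 18 (1.23%, 13), and the 13 regions of chromosome Y included no member.

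Around the limits of the choice, 424 regions had an island in both early WT lists and in 1 other list. That list was late WT 2 in 197 of them, early KO 1 in 134 and early KO 2 in 62, and late KO 2, late WT 1 and late KO 1 gave 15, 12 and 4. These near misses had a median width of 3.0 kb and a median percentile of 17.1 in the early WT lists. The islands that removed them were weak, at a median percentile of 9.19 in late WT 2 and 7.94 in early KO 1. A further 623 regions were in early WT 1 and no other list and 899 in early WT 2 and no other list, at median percentiles of 7.08 and 7.38. The members lay between these 2 kinds in strength, and regions on both sides of the limit came from the weak end of the lists. With the lists reduced to their upper 50%, 203 regions were found in early WT alone, and only 1 of the 771 was among the places found again. With all lists cut to the 26548 islands of the shortest, which is early WT 1, there were 1037 regions in early WT alone, against 603 in early KO alone, 539 in late WT alone and 496 in late KO alone, and 628 of the 771 were found again.

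DNase islands, which had no part in the choice, were listed at few members and mostly in early WT cells. A DNase island overlapped 144 of the 771 in early WT 1 (18.7%, Wilson 95% interval 16.1% to 21.6%) and 181 in early WT 2 (23.5%, 20.6% to 26.6%). In early KO the counts were 11 (1.43%, 0.799% to 2.54%) and 68 (8.82%, 7.02% to 11.0%). In late WT they were 25 (3.24%, 2.21% to 4.74%) and 60 (7.78%, 6.09% to 9.89%). In late KO they were 6 (0.778%, 0.357% to 1.69%) and 5 (0.649%, 0.277% to 1.51%). The intervals treat regions as independent and cover counting error only. Both early WT libraries were above the other 6.

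The lists differed in length, so their counts are read beside the share of all 35909 regions. That share was 65.0% and 68.5% in early WT, 50% and 66.6% in early KO, 55.2% and 65.6% in late WT and 40.9% and 38.5% in late KO. Early WT 1, early KO 2 and late WT 2 had lists of like length (37525, 37956 and 36963 islands) and overlapped like shares of all regions. In members their shares were 18.7%, 8.82% and 7.78%. The excess of early WT in members was therefore also seen between lists of like length. With all DNase lists cut to the 17397 islands of the shortest, few members kept an island, 7 and 9 in early WT and 1 to 5 in each of the other lists.

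**Figure D4:**
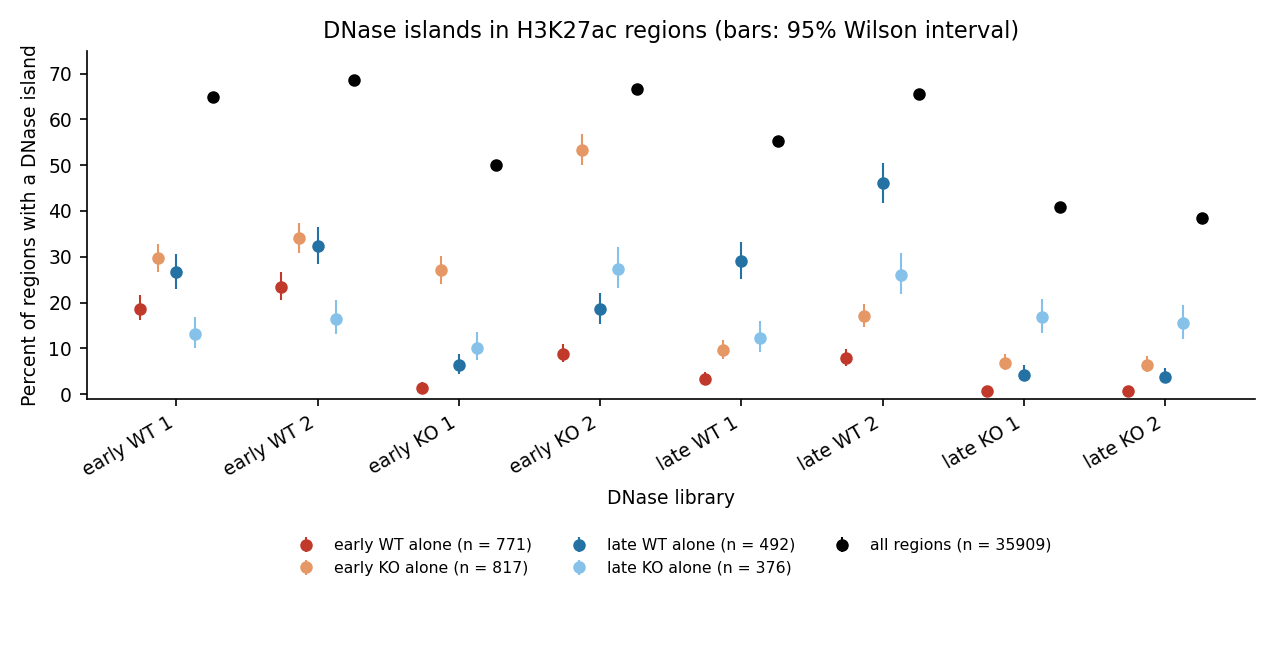
Percent of regions with a DNase island (vertical, with 95% Wilson intervals) in each DNase library (horizontal) for regions found in 1 group alone and for all 35909 regions. Early-WT-alone regions reach 18.7% and 23.5% in the early WT libraries and stay under 9% in the other 6.

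Most members held no DNase island in any library. No DNase list held an island in 549 members (71.2%). This share was 40.5% for the regions of early KO alone, 46.1% for late WT alone, 51.6% for late KO alone and 21.0% for all regions. At least 1 DNase list held 222 members (28.8%, against 79.0% of all regions), at least 2 lists held 145 (18.8%, against 72.0%) and all 8 lists held 2 (0.259%, against 32.5%). In the DNase lists of their own group, regions of early KO alone were open in 27.1% and 53.4%, and those of late WT alone in 29.1% and 46.1%. Those of late KO alone were open in 16.8% and 15.4%, less than the members' 18.7% and 23.5% in early WT. Between score percentiles 10 and 15 of the early WT lists, 19.5% and 18.9% of 169 members were open in early WT 1 and 2, against 56.3% and 62.2% of 781 regions that both early WT lists shared with at least 1 other list. Between percentiles 25 and 30 the shares were 21.7% and 33.3% of 69 members, against 63.8% and 71.5% of 981. The open share had no single direction with width. It was 13.5% and 21.9% of the 96 members under 2 kb, highest at 26.6% and 32.2% of the 214 members of 2 to 3 kb, and lowest at 5.62% and 7.87% of the 89 members at least 6 kb wide.

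In early WT most open members, but not all, had a DNase island near the centre. An island reached within 0.4 kb of it in 97 of the 144 members open in early WT 1 (67.4%), 139 of the 181 open in early WT 2 (76.8%) and 36 of the 68 open in early KO 2 (52.9%). Within 0.4 kb of the centre, islands of early WT 1 and 2 covered 8.07% and 13.5% of the sequence, and those of the other 6 lists 0.519% to 3.31%. Regions of early KO alone had a sharper centre, with 17.3% and 34.7% in early KO lists and 18.2% and 22.9% in early WT lists. Between 5 and 10 kb from the members' centres, coverage was 5.18% and 7.53% in early WT, less than at the centre. In the other 6 libraries it was 2.61% to 5.17% there, more than at the centre in each. The nearest DNase island of early WT 1 and 2 was a median of 7.6 and 5.8 kb away from a member, overlaps counted as 0. In early KO 2 and late WT 2 it was 10.2 kb away.

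**Figure D5:**
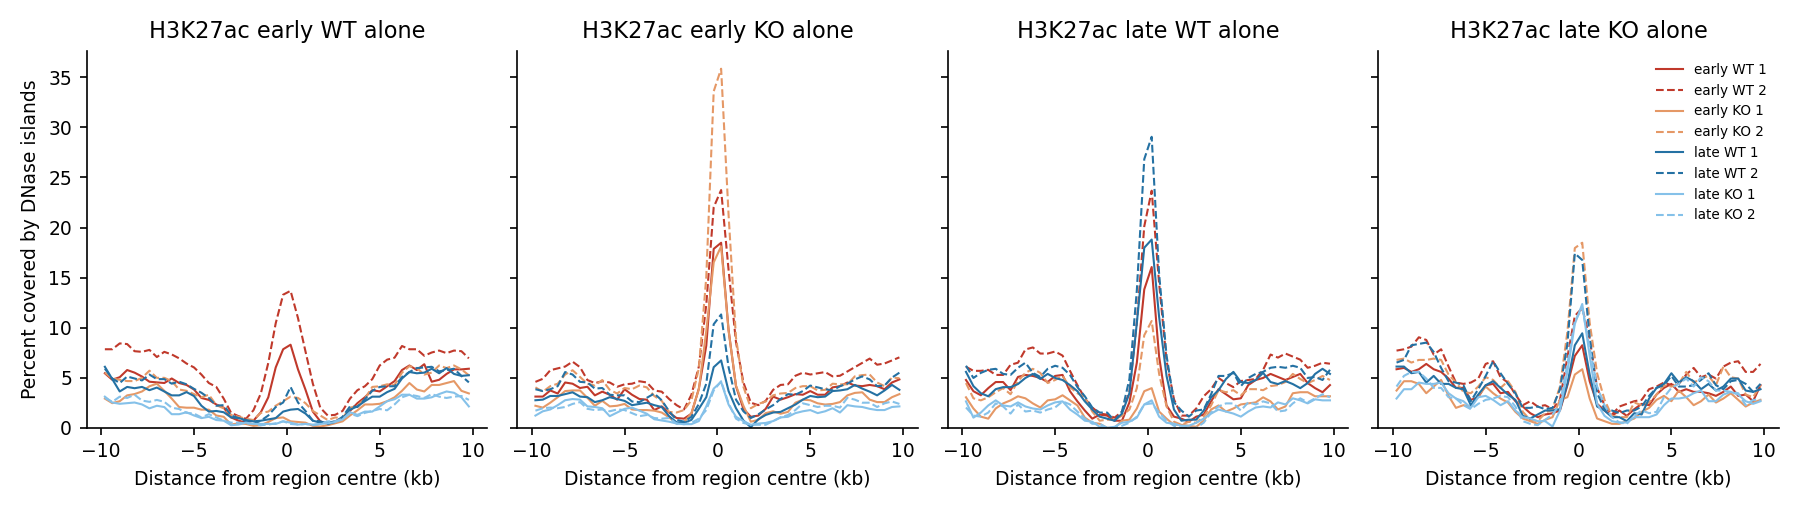
Percent of sequence covered by DNase islands (vertical) against distance from the region centre in kb (horizontal), in steps of 0.4 kb, for each DNase library, around H3K27ac regions found in 1 group alone. Around early-WT-alone regions only the 2 early WT lines rise clearly at the centre, and the peak is lower than around regions of early KO alone or late WT alone.

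The 131 members open in both early WT DNase lists (17.0%, against 63.0% of all regions) were a little stronger in H3K27ac than the 549 without DNase, at a median score percentile of 16.8 against 14.7, and were somewhat narrower, at 3.0 against 3.4 kb. They lay farther from the nearest region of all 8 lists, at a median of 19.4 against 11.2 kb. Of the 131, 88 (67.2%) had no island in either early KO DNase list. These 88 were 11.4% of the 771, and the pattern was found in 4.69% of all regions. Of the same 131, 62.6% had none in either late WT list, and 62 (47.3%) had none in any of the other 6. Among 22500 other H3K27ac regions open in both early WT lists the shares were 7.09%, 7.0% and 2.71%. The early WT DNase islands of the members were also weaker, at a median DNase score percentile of 32.1 against 66.5, and the part of island strength in these shares was not tested. Between DNase percentiles 20 and 40 the shares without an early KO island were 67.1% of 70 members and 21.7% of 3311 other regions, and between 40 and 60 they were 59.3% of 27 and 5.04% of 4586. Between percentiles 0 and 20 they were 83.3% of 30 and 42.4% of 1496. Between 60 and 80 they were 0% of 4 and 0.199% of 6038. Regions held by early WT alone in H3K27ac, in short, were also held by early WT alone in DNase in 62 of 771 cases (8.04%), where this DNase pattern was found in 1.87% of all regions. The same match of both assays was found in 45 regions of early KO alone (5.51%), 30 of late WT alone (6.10%) and 8 of late KO alone (2.13%), where the DNase patterns had frequencies of 0.718%, 0.707% and 0.0641% among all regions.

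Among the 62, the 5 with the highest DNase scores included 2 of the strongest by H3K27ac, those on chromosome 3 at 89294001 to 89297200 (mean DNase percentile 53.0) and chromosome 13 at 52259801 to 52265400 (50.7). The region on chromosome 4 at 136853201 to 136855400 had DNase islands of 0.4 kb in each early WT list. That on chromosome 15 at 12239801 to 12243800 had 0.6 and 1.6 kb, under H3K27ac islands at percentiles 30.4 and 49.0. The fifth, on chromosome 4 at 99988801 to 99991000, had 0.4 and 1.2 kb and lay 328.6 kb from the nearest other H3K27ac region, the farthest of all members. DNase signal restricted to early WT was thus found both beside lasting acetylated chromatin and far from it.

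The kb covered by DNase islands were then fitted across all merged regions with limma, on a log2(kb + 0.2) scale, for regions with an island in at least 2 of the 8 DNase lists. Of the 771 members 145 passed that filter, and the others could not be called. Among the 145, 131 held an island in both early WT lists, and 62 members held islands in these lists alone. Those 62 passed the filter only through early WT. Against early WT they could only be called lower, so their direction is no finding about them. A group at 0 in both lists has no spread, which lowers the standard error shared by the 4 groups. Their calls are therefore no support for a difference either. The chromosome 1 members at 173884201 and 133549201 both had 0.8 kb in early WT and 0 in early KO. The first was at 0 in late WT too, with a standard error of 0.337. The second averaged 0.3 kb there, with 0.629. In all 48 members were called between early KO and early WT, where 3.9% of regions fitted were called. Early KO cells were lower in 47 members (6.10% of 771, 32.4% of the 145 fitted) and higher in 1. Of all 25850 regions fitted, 2.55% were lower and 1.35% higher (limma, Benjamini-Hochberg adjusted p under 0.05). With no filter, so that every region was fitted, 48 members (6.23%) were lower, against 1.48% of all 35909. All 47 were listed at 0 in both early KO DNase lists, and their mean in early WT was 1.21 kb. With early KO at 0, the log2 size of these falls depends on the 0.2 kb added. Counted by values that did not overlap, both early WT libraries lay above both early KO libraries in 100 members (12.97%) and below them in 3 (0.389%). Over all regions these patterns had shares of 19.8% and 3.58%, so by this count members did not exceed the background, most of them being at 0 throughout.

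The falls in early KO were largest on chromosome 10 at 126665401 to 126669200. There DNase islands covered 2.2 and 2.4 kb in early WT and none were listed in the other 6 libraries (2.3 ± 0.14 kb against 0, SD, n = 2). The region on chromosome 3 at 37023201 to 37026400 had 2.0 and 2.4 kb in early WT, and that on chromosome 1 at 38779601 to 38781800 had 1.8 and 2.0 kb. Those on chromosome 7 at 56930001 to 56933000 and chromosome 11 at 30058401 to 30062400 had 1.4 and 2.4 kb and 1.4 and 2.2 kb. All 5 were listed at 0 in early KO and late cells, and so passed the filter through early WT alone. Their p-values are not given, since the calls rest on groups without spread. Their DNase islands were weak, and none was left when all lists were cut to equal length. Their H3K27ac was mostly weak, with mean score percentiles of 8.10, 9.25, 33.1, 10.4 and 29.2 in the order named. The single member that was higher in early KO lay on chromosome 8 at 19918601 to 19923200. It had no DNase island in early WT. The early KO lists covered 1.2 and 2.2 kb of it, each late WT list 3.0 kb and the late KO lists 3.0 and 4.0 kb (limma adjusted p = 0.0165 for early KO). In this region the 2 assays went opposite ways, with H3K27ac listed in early WT alone and DNase in every group but early WT. Its H3K27ac rests mostly on early WT 1, which covered 4.6 kb at score percentile 24.9. Early WT 2 covered 1.4 kb of it at percentile 7.0. A second member, 0.8 kb away at 19924001 to 19926200, did have DNase islands in early WT. Early WT averaged 1.6 kb of it and early KO 2.2 kb, with no call (limma adjusted p = 0.344). It went the same way without a call, and early KO lists covered all of it, so it could not rise further. The lack of DNase islands in early WT was thus seen in 1 region and not in this neighbour. With all DNase lists cut to equal length, the early KO and late WT islands of the region at 19918601 were removed. All 3 groups compared then stood at 0 there.

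Late WT cells, compared with the same early WT libraries, were lower in 62 members (8.04% of 771, 42.8% of the 145 fitted) and higher in 2. Of all regions fitted 3.32% were lower and 1.12% higher (limma, adjusted p under 0.05), and with no filter 57 members (7.39%) and 1.94% of all regions were lower. The 62 were listed at 0 in both late WT lists and averaged 1.095 kb in early WT. The 5 largest falls were those named for early KO, all listed at 0 outside early WT. Both comparisons share the early WT libraries, so the overlap of 46 members lower in both is no separate evidence. The 2 that were higher in late WT were the chromosome 8 region at 19918601 and one on chromosome 14 at 17004001 to 17007400. The latter was at 0.8 and 0.4 kb in late WT and 0 in the other 6 libraries (limma adjusted p = 0.0426). It thus passed the filter through late WT alone. This last call was lost with quantile normalization (limma adjusted p = 0.142) and with a pseudocount of 1 kb (limma adjusted p = 0.136). By values that did not overlap, early WT lay above late WT in 93 members (12.1%, against 13.6% of all regions) and below it in 6 (0.778%, against 7.24%).

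The comparison of late KO with late WT uses no early WT library. There 4 members were lower and 0 higher (limma, adjusted p under 0.05, 17 at an unadjusted p under 0.05 in either direction), where 7.88% of all regions fitted were lower, 0.665% higher and 8.54% called in all. With no filter, 1 member was lower, against 3.9% of all 35909 regions. These 4 members are 0.519% of 771 and 2.76% of the 145 members fitted, both under the 7.88% of all regions fitted. They lay on chromosome 6 at 145492801 to 145494200 (1.4 and 1.0 kb in late WT) and 52911601 to 52913800 (0.8 and 1.6 kb), chromosome 10 at 41007201 to 41008800 (0.8 and 0.8 kb) and chromosome 17 at 30207001 to 30211400 (0.8 and 0.6 kb), each at 0 in late KO (limma adjusted p = 0.0215, 0.0186, 0.0356 and 0.0481). All 4 were open in both early WT lists as well. By values that did not overlap, late WT lay above late KO in 18 members (2.33%, against 29.8% of all regions) and below it in 1 (0.130%, against 1.91%). Both late KO DNase lists held 4 members (0.519%, against 35.0% of all regions), and 0 were in both late KO lists and neither late WT list (against 0.526%). In these members DNase islands were listed in late WT cells and H3K27ac islands were not. All 4 calls were lost with a pseudocount of 1 kb (limma adjusted p from 0.0861 to 0.258), and with quantile normalization the chromosome 6 region at 145492801 alone was still called (limma adjusted p = 0.0418). With all DNase lists cut to equal length, the late WT islands of all 4 were removed. The chromosome 6 region at 52911601 was still fitted through its early WT islands, but both late groups stood at 0 there. The others could not be fitted.

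The limma calls rest on few libraries. With any of early WT replicates 1 and 2, early KO replicate 1 and late KO replicates 1 and 2 left out, the early KO comparison called 0 members and 0 regions in all, while 13 to 88 members had an unadjusted p under 0.05. The late WT comparison called 0 without any of early WT replicates 1 and 2, late WT replicates 1 and 2 and late KO replicates 1 and 2, with 19 to 99 members at an unadjusted p under 0.05. The late KO comparison called 0 members without late WT replicate 1, late WT replicate 2 or late KO replicate 2 (25, 16 and 8 at an unadjusted p under 0.05).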

How the data were processed

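The deposited files are lists of islands with a score each, 16 in all, made by the authors with CASAVA 2.18, Bowtie2 and SICER 1.1 on mm9, per the submitters' processing notes. The score is the authors' value and was used only to rank islands within a list; no read counts were used, so depth is unknown. Positions are given from 1. H3K27ac islands were merged and the kb covered by DNase islands were summed over each merged region. DNase was fitted with limma 3.58.1 (R 4.3.3) on log2(kb + 0.2), all 4 groups together, with a trend, over regions with an island in at least 2 of 8 DNase lists. Libraries were centred on the median of regions covered in all 8, and p-values were adjusted by Benjamini-Hochberg over all 25850 regions fitted. The labels do not say that replicates were separate cultures or animals, so p-values measure only the spread between these samples.

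On simulated data for the early KO comparison (25850 regions, 200 changed), limma recovered 0% of changes of -1 or -2 on the log2 scale and 32% of changes of -3. With changes of -3, 5 unchanged regions were called too. The simulated noise was normal and no group was held at 0, unlike in the members called lower. These shares therefore do not describe the recovery of such members. Regions were named if they ranked among the 10 highest by score percentile (mean of both early WT lists), the 5 widest, the 5 largest groups, up to 5 called falls and rises per DNase comparison, and the 5 with the highest DNase score among those open in early WT alone. The members and these rules were chosen with earlier results of these data known. Gene assignment, marker genes and sequences were not analysed here, since the reference tables were of GRCm38.p6. Intervals on shares are Wilson 95% intervals. Alternatives were other merging distances, list lengths, scalings, pseudocounts, filters, a replicate block and leaving out each library.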

Additional observations from a re-analysis of the deposited data

How the results depend on the processing

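The number of regions in early WT alone was 742 and 649 with islands merged up to 400 or 1000 bp apart, 203 with the upper 50% of each list, and 780 to 1782 with 1 library left out, the most without early WT replicate 1 (1782) and early WT replicate 2 (1456). Mean DNase shares of members fell from 21.1% to 1.04% with lists cut to equal length and 1.88% with the upper 50% in early WT, from 5.12% to 0.324% under both settings in early KO, from 5.51% to 0.259% and 0.454% in late WT, and from 0.713% to 0.519% and 0.389% in late KO, where a distance of 1 kb gave 0.908%.

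Of 48 members called between early KO and early WT, 31 were left in number with quantile normalization, 7 at equal length, 9 with the upper 50%, 17 with a pseudocount of 1 kb and 0 to 58 with 1 library left out. All regions called numbered 1008, then 480 (quantile), 368 (pseudocount) and 0 to 1682. For late WT against early WT, 64 members became 33, 6, 8, 35 and 0 to 80 in the same order, and 1148 regions became 501, 634 and 0 to 1913. For late KO against late WT, 4 members became 2 (quantile), 2 (equal length), 2 (upper 50%), 0 (pseudocount, 9 at an unadjusted p under 0.05 in limma), 7 (no centring), 1 (no filter) and 0 to 10. The 4 were all lower in late KO. At equal length and with the upper 50%, the 2 called were higher in late KO and 0 were lower, so no fall was kept. All 2208 regions became 1241 (quantile), 1170 (equal length), 606 (pseudocount) and 0 to 3887. At equal length 641 regions were higher and 548 lower in early KO, against 350 and 658 with full lists. Without centring the median log2 difference of all regions moved from -0.08 to -0.37 for early KO and from -0.38 to -0.77 for late KO.

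Some fitted values changed sign where the cut lists left both groups at 0 kb, so they hold only the centring and are no change of direction. They were -0.082 for the chromosome 8 region at 19918601 (late WT against early WT, equal length), and 0.46 (equal length) and 0.37 (upper 50%) for the chromosome 6 region at 52911601 (late KO against late WT). The causes of the other changes were not tested.

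Replicate numbers did not pair the samples: correlations of same-numbered DNase libraries ran from -0.0043 to 0.110 over 6 pairs of groups. With the replicate block, members called were 35, 48 and 2 in the 3 comparisons, and all regions called were 669, 797 and 1551. Named calls lost with it were the chromosome 14 region at 17004001 in late WT (limma adjusted p = 0.0550) and, in late KO, the chromosome 10 region at 41007201 (0.0684) and the chromosome 17 region at 30207001 (0.0724).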
